A study of Gallus gallus with 6 samples.

Results

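The genes described here are markers of DNA synthesis (S phase) and of the passage through G2 and mitosis (G2/M), read out in single cells of the chicken embryo. They were chosen from a list of 44 such genes by their symbols, of which 41 have a row in the deposited matrices of 16828 genes. The 15 S genes are the helicase and licensing genes MCM2, MCM3, MCM4, MCM5, MCM6, CDC6, CDC45 and GINS2, the replication genes PCNA, RFC2 and FEN1, the nucleotide genes RRM1 and RRM2, and UHRF1 and SLBP. The 26 G2/M genes are CDK1, CCNB2, CCNA2, PLK1, AURKA, TTK, BUB1, CENPE, CENPF, CENPA, NDC80, NUF2, BUB1B, BUB3, KIF11, KIF23, TPX2, NUSAP1, NDE1, CDC20, UBE2S, TOP2A, SMC4, HMGB2, KPNA2 and CKS2. No row carries the symbol AURKB, KIF20A or TYMS, so these 3 listed genes were not analysed here.

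A dividing cell first licenses its replication origins by loading the MCM helicase, copies its DNA in S phase, and then builds a spindle under the control of CDK1 and its cyclins. Transcripts of the replication genes are made around the entry into S phase, whereas those of the mitotic cyclins, kinetochore and spindle genes accumulate through G2 and are lost after division. In the early embryo most neuroepithelial, mesenchymal and epithelial cells divide, whereas neurons leave the cycle when they differentiate, and the primitive red blood cells of birds still divide in the circulation for some time.

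The study compared skeletal precursors of different embryonic origin. Its 6 single-cell libraries came from pooled embryos of both sexes, from fertilised eggs of the Hubbard chicken, with no treatment or genetic change. The 3 nasal libraries were frontonasal prominence at Hamburger-Hamilton (HH) stages 15, 18 and 22, and the 3 somite libraries were tissue containing the dorsal brachial somites at HH12, HH15 and HH20. Each stage of each location is 1 library. Stage, embryo pool and library cannot be told apart for any single value, and the 3 stages of a location stood in as its replicates. Both dissections held the neighbouring neural, epithelial and blood cells as well as mesenchyme.

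After the filters, 16304 cells were kept, 1352 to 4469 per library, with 6420274 to 15142023 UMIs (unique molecular identifiers, 1 for each captured transcript) per library and a median of 2230 to 3445 UMIs per cell. Hemoglobin genes took 1.28%, 2.80% and 20.2% of UMIs in the nasal libraries of HH15, HH18 and HH22, and 0.0323%, 1.41% and 8.67% in the somite libraries of HH12, HH15 and HH20. Pairs of libraries shared 2 to 22 cell barcodes. Among the listed genes a UMI of HMGB2 was found in a median of 86.8% of cells per library, of PCNA in 76.6%, of TOP2A in 57.3% and of CDK1 in 52.4%, before thinning. At the other end GINS2 was found in 0.85% and CENPA in 1.2% of cells, from 150 and 188 UMIs in all 6 libraries, and their values below are coarse.

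Kinds of cells were taken by a single marker, as cells with at least 1 UMI of PDGFRA (mesenchyme), NKX3-2 (sclerotome), DMRT2 (dermomyotome), FABP7 (neural progenitors), ELAVL4 (neurons), SOX10 (neural crest) or EPCAM (epithelium), or with over 20% of their UMIs from hemoglobin genes (hemoglobin-rich cells). The other defining markers were checked in each of these. PDGFRA cells carried PRRX1 at a median of 91.5 CPM (UMIs of the gene scaled to a common total) and TWIST1 at 61.0 CPM over the libraries. NKX3-2 cells carried PAX1 at 138 CPM, and DMRT2 cells carried TCF15 at 743 CPM. SOX10 cells carried EDNRB at 177 CPM, and EPCAM cells carried KRT19 at 420 CPM.

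These labels did not all separate cleanly. EPCAM cells held summed neural progenitor markers at 1597 CPM, against 1388 CPM of epithelium markers, at nasal HH15. In the somite libraries neural progenitor markers were above as well, at 1079 against 1035 (HH12), 1242 against 1145 (HH15) and 1847 against 526 CPM (HH20). At nasal HH18 and HH22 they were below, at 1162 against 1362 and 866 against 953 CPM. At somite HH12, but not later, dermomyotome markers summed above the own markers of PDGFRA cells (1273 against 582 CPM) and NKX3-2 cells (1437 against 626 CPM). That list includes MEOX1 and TCF15, and its sum was also 791 CPM in all cells of somite HH12. The sum is thus not read as naming these cells dermomyotome. SOX10 cells held summed neural progenitor markers at 470 CPM, against 470 CPM of neural crest markers, at nasal HH15. At somite HH12, HH15 and HH20 the sums were 598 against 650, 748 against 788 and 497 against 814 CPM. FABP7, ELAVL4 and hemoglobin-rich cells were mixed as well. FABP7 UMIs were found in 9151 of the 16304 cells. Among them were 78% of EPCAM, 62.5% of ELAVL4, 56.3% of SOX10, 42.8% of hemoglobin-rich and 41.6% of PDGFRA cells. Cells with a FABP7 UMI are thus not a pure neural class. ELAVL4 cells held TUBB3 at a median of 680 CPM and FABP7 at 851 CPM, and they are called ELAVL4 cells here and not neurons. Where at least 2 of 5 other neuron markers were also required, a rule chosen after seeing the data, the cells are called neuron-like. In hemoglobin-rich cells SOX2, SOX10, EPCAM, PAX1 and CDH5 had a median of 0 CPM. Endothelium markers were summed over a list that includes CDH5, KDR, PECAM1 and TAL1. Their sum was at 137, 84.9 and 42.1 CPM in nasal and 85.4 and 96.9 CPM in somite HH15 and HH20 hemoglobin-rich cells. The other cells had 5.64, 5.11 and 10.5 CPM in nasal and 14.1 and 16.0 CPM in somite libraries. Which gene carried the sum is not given, so it is not read as endothelial cells among the hemoglobin-rich cells. ALAS2, the enzyme that starts haem synthesis in red blood cells, was at a median of 1.54 CPM there against 23.9 CPM in all cells, which does not follow its usual role as a marker.

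CDK1 (ENSGALG00000003085), the kinase that drives entry into mitosis, or TOP2A (ENSGALG00000003922), the topoisomerase that untangles replicated chromosomes, was found in a large minority of cells of every library once each cell had been thinned to 1000 UMIs. The share was 49.3% (95% Clopper-Pearson interval 47.4 to 51.3), 48.6% (47.1 to 50.03) and 45.7% (43.0 to 48.4) of nasal cells at HH15, HH18 and HH22, and 46.5% (44.7 to 48.3), 47.3% (45.5 to 49.1) and 38.8% (36.5 to 41.1) of somite cells at HH12, HH15 and HH20. The nasal mean was 3.69 percentage points above the somite mean, and the libraries of both locations overlapped. The lowest share lay in the last somite stage, below every other library by more than its counting interval. These intervals cover counting error only. Without thinning the shares were 77.98%, 80.2% and 80.1% in nasal cells and 77.8%, 71.7% and 69.3% in somite cells.

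CDK1 and TOP2A did not share the same profile over stages. CDK1 alone was found in 28.9%, 26.3% and 19.5% of thinned nasal cells and in 26.0%, 29.0% and 19.5% of thinned somite cells, in the order of the stages. TOP2A alone was found in 27.4%, 30.3% and 32.5% of nasal cells and in 28.0%, 27.0% and 25.9% of somite cells. The last stage of both locations thus had the lowest CDK1 share, whereas the TOP2A share was highest at the last nasal stage.

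Shares also differed between kinds of cells, and the size of these differences was not tested against that between the locations. Among thinned FABP7 cells the share with CDK1 or TOP2A was 52.9%, 51.4% and 50% in the nasal libraries and 48.7%, 50.3% and 40.2% in the somite libraries. PDGFRA cells had 47.2%, 47.0% and 43.9% in the nasal and 43.1%, 42.3% and 38.6% in the somite libraries. FABP7 cells lay above PDGFRA cells in all 6 libraries.

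In the somite tissue, NKX3-2 cells, which give rise to the vertebral cartilage, had 38.4%, 43.1% and 39.8% at HH12, HH15 and HH20. DMRT2 cells had 42.4% at HH12 and 47.6% at HH20, the stages with at least 20 such cells. SOX10 cells had 35.0%, 40.2% and 44.4% in the somite libraries, and 40.0% (19.1 to 63.9) among 20 cells of the nasal HH15 library. EPCAM cells had 39.5%, 43.6% and 36.7% in the nasal and 43.2%, 42.0% and 21.1% (12.5 to 31.9) in the somite libraries.

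ELAVL4 cells had 43.2%, 47.7% and 47.8% in the nasal and 45.3%, 47.0% and 31.4% in the somite libraries, below FABP7 cells without ELAVL4 in all 6 libraries, which had 53.2%, 51.3% and 49.2% in the nasal and 49.0%, 50.1% and 42.9% in the somite libraries. The gap was widest at somite HH20 and nasal HH15. The neuron-like cells had lower shares, with 25.9% (11.1 to 46.3), 27.8% (14.2 to 45.2) and 29.0% (14.2 to 48.0) in the nasal libraries and 18.2% (12.6 to 25.1) in the somite HH20 library, from 27, 36, 31 and 159 cells. Neurons do not divide, so these shares are taken as the background at this depth, an assumption that their wide intervals set only roughly. A thinned share at or below them is not read as expression.

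Hemoglobin-rich cells had the lowest shares, at 19.2%, 17.0% and 9.87% in the nasal libraries and 14.3% and 12.7% in the somite HH15 and HH20 libraries, against 49.6%, 49.3% and 50.2% of the other nasal cells and 47.7% and 40.4% of the other somite cells. Hemoglobin genes take over 20% of the UMIs of such a cell by definition. With 1000 UMIs outside the hemoglobin genes, a setting chosen after seeing the data, the shares were 26.9%, 27.2% and 33.8% in nasal and 13.3% and 28.6% in somite hemoglobin-rich cells, against 49.6%, 50.5% and 47.2% of the other nasal cells and 48.5% and 41.0% of the other somite cells. The mean difference was -32.8 percentage points with hemoglobin counted and -21.4 without it. With hemoglobin counted, the shares lay below those of the neuron-like cells of the same library wherever both had a value. Hemoglobin took 55.6% to 67.9% of UMIs in hemoglobin-rich cells per library, so fewer of the 1000 UMIs came from other genes. The background is thus at an unlike depth, and these shares are read neither as expression nor as its absence. Without it they were below at nasal HH18 and above at nasal HH15, nasal HH22 and somite HH20; at the last stages the intervals of 26.2 to 42.0 and 19.9 to 38.6 overlapped those of the neuron-like cells. Unthinned, the shares were 65.4%, 58.0% and 72.4% and 37.1% and 58.8%, in cells whose median depth was 4688 to 12034 UMIs.

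**Figure D1:**
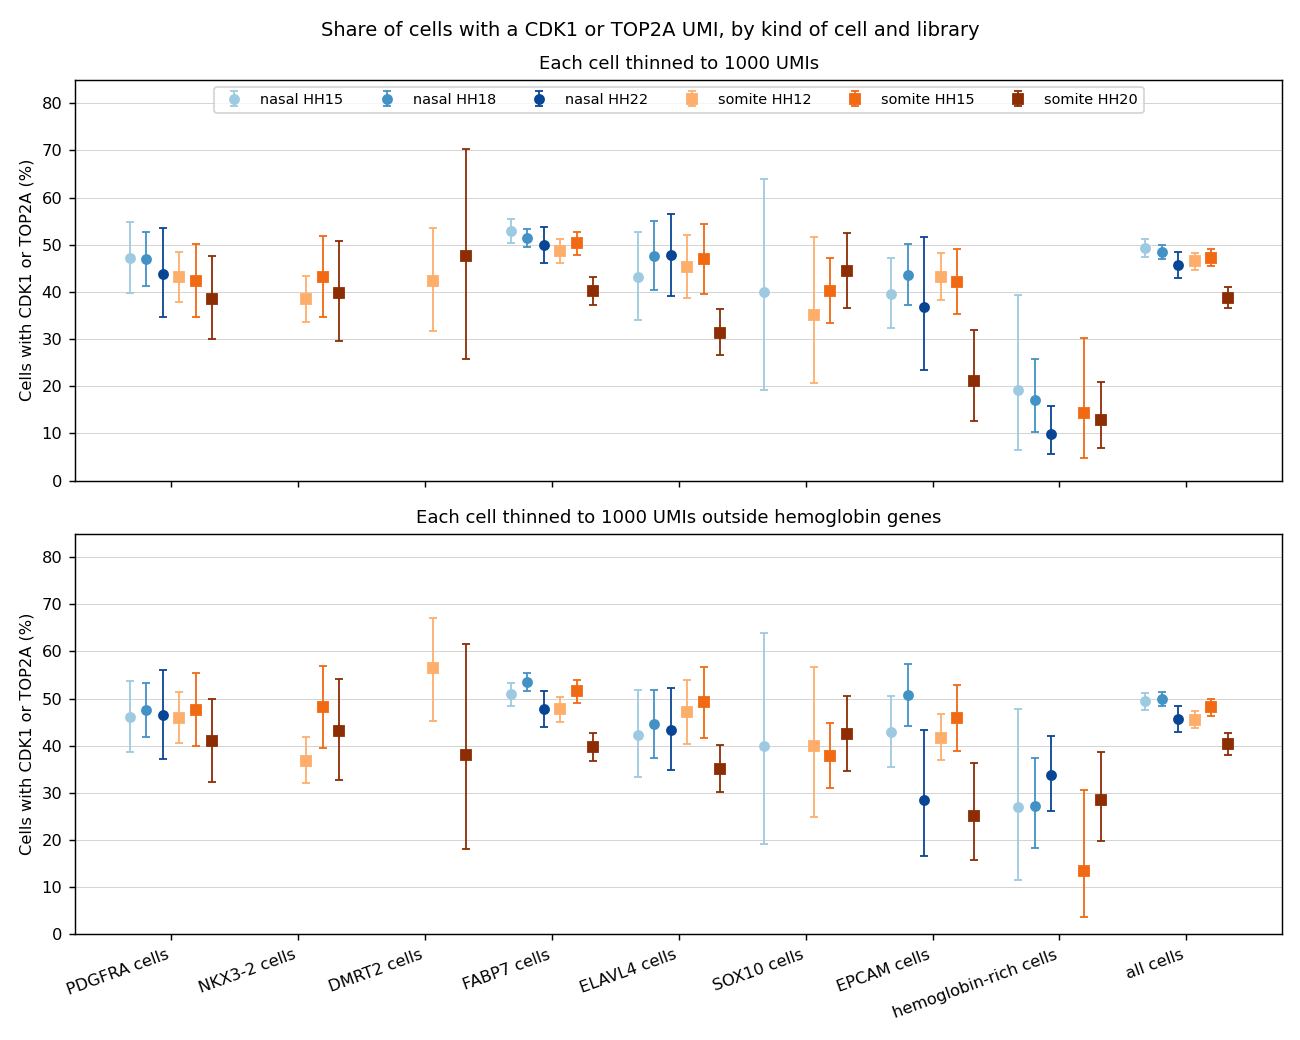
Percent of cells with a CDK1 or TOP2A UMI (y axis) by kind of cell (x axis), with 1 point per library and 95% Clopper-Pearson bars; blue circles are nasal and orange squares somite libraries. The top panel thins each cell to 1000 UMIs and the bottom panel to 1000 UMIs outside hemoglobin genes. In the top panel the hemoglobin-rich cells sit between 9.87% and 19.2%, below the points of all cells between 38.8% and 49.3%.

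The comparison of the locations asked whether cells of the frontonasal prominence and of the somite tissue differed in their cycle genes. None of the 41 genes tested was called (Benjamini-Hochberg adjusted p under 0.05 over all genes, edgeR's quasi-likelihood test), and 2.11% of all 10115 genes were called in either direction. At an unadjusted p under 0.05 there were 4 of the 41 genes, beside 1261 of all 10115 genes, and DESeq2 also called 0. All 15 S genes had a positive nasal minus somite log2 fold change, with a median of 0.15, as did 20 of the 26 G2/M genes, with a median of 0.16, beside 0.02 over all genes. The fits share the same 6 libraries, so the genes are not independent of each other. CPM values in the comparisons are scaled between sums by TMM, the trimmed-mean method of edgeR, and standard errors (SE) are the log2 fold change divided by the square root of the F statistic.

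Among the kinases and cyclins, CDK1 had 391, 361 and 253 CPM in the nasal libraries (HH15, HH18, HH22), against 348, 445 and 274 CPM in the somite libraries (HH12, HH15, HH20). Its difference was -0.08 on the log2 scale (SE 0.23, adjusted p = 0.97 by edgeR's quasi-likelihood test). Both locations overlapped and both were lowest at their last stage. CCNB2, a cyclin partner of CDK1, had 263, 257 and 212 CPM in nasal and 196, 283 and 228 CPM in somite libraries, a difference of 0.05 (SE 0.18). TOP2A had 310, 362 and 418 CPM in nasal and 290, 316 and 315 CPM in somite libraries, a difference of 0.25 (SE 0.16, adjusted p = 0.66 by edgeR's quasi-likelihood test).

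For PCNA, MCM5 and RRM2 the libraries of both locations overlapped. PCNA, the sliding clamp of the replication fork, had 894, 843 and 488 CPM in nasal and 610, 874 and 497 CPM in somite libraries, a difference of 0.17 (SE 0.29). MCM5, a helicase subunit, had 237, 215 and 114 CPM in nasal and 172, 214 and 129 CPM in somite libraries, a difference of 0.14 (SE 0.30). RRM2, the small subunit of ribonucleotide reductase, had 323, 283 and 187 CPM in nasal and 236, 334 and 190 CPM in somite libraries, a difference of 0.06 (SE 0.27). For all 3 genes the last stage of either location lay below all earlier libraries.

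For 4 genes the locations had libraries that did not overlap and an unadjusted p under 0.05, a level that 1261 of all 10115 genes reached. How many of all genes had libraries that did not overlap is not given, so these genes are not read as a difference between the locations. Apart from CDC20 these genes were named after their values were seen. CDC20, an activator of the anaphase-promoting complex, had 134, 114 and 154 CPM in nasal and 189, 189 and 167 CPM in somite libraries, a difference of -0.44 (SE 0.16, adjusted p = 0.31 by edgeR's quasi-likelihood test). UBE2S, the ubiquitin-conjugating enzyme that works with that complex, had 32.5, 32.3 and 47.6 CPM in nasal and 53.5, 54.7 and 66.8 CPM in somite libraries (difference -0.64). UHRF1, which maintains DNA methylation behind the fork, had 148, 164 and 154 CPM in nasal and 104, 132 and 106 CPM in somite libraries (difference 0.45). CCNA2, the cyclin of S and G2 phase, had 109, 104 and 107 CPM in nasal and 87.4, 76.6 and 83.0 CPM in somite libraries (difference 0.38). None of these differences passed the adjustment over all genes, whose adjusted p ranged from 0.21 to 0.31 (edgeR's quasi-likelihood test).

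Within PDGFRA cells 39 of the 41 genes could be tested and 0 were called, beside 1.96% of all genes tested in that comparison. At an unadjusted p under 0.05 there were 3 genes, beside 653 of all 5207 genes, and DESeq2 called 0. UHRF1 had 172, 191 and 177 CPM in nasal PDGFRA cells, against 97.9, 145 and 107 CPM in somite PDGFRA cells, a difference of 0.63 (SE 0.19, adjusted p = 0.15 by edgeR's quasi-likelihood test). CCNA2 had 200, 146 and 147 CPM in nasal, against 117, 88.5 and 110 CPM in somite PDGFRA cells, a difference of 0.62 (SE 0.20, adjusted p = 0.18 by edgeR's quasi-likelihood test). The libraries of both locations did not overlap for either gene, a property whose share over all genes is not given. CDK1 had 276, 222 and 214 CPM in nasal and 333, 294 and 233 CPM in somite PDGFRA cells (difference -0.28), and TOP2A had 368, 434 and 519 CPM in nasal and 350, 424 and 432 CPM in somite PDGFRA cells (difference 0.13). Of the S genes, PCNA had 624, 620 and 459 CPM in nasal and 518, 642 and 498 CPM in somite PDGFRA cells (difference 0.04), which overlapped. MCM5 had 171, 175 and 113 CPM in nasal and 144, 141 and 165 CPM in somite PDGFRA cells (difference 0.06), and RRM2 had 249, 192 and 152 CPM in nasal and 182, 213 and 141 CPM in somite PDGFRA cells (difference 0.14). CDC20 had 116, 133 and 142 CPM in nasal and 191, 209 and 139 CPM in somite PDGFRA cells (difference -0.47), and CCNB2 had 156, 221 and 188 CPM in nasal and 198, 306 and 173 CPM in somite PDGFRA cells (difference -0.25). None of these was called.

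The summed S genes were lowest at the last stage of both locations, and the ratio of S to G2/M UMIs was lower at each later stage. Outside the hemoglobin genes, the S genes took 2931, 2781 and 1831 CPM in nasal cells at HH15, HH18 and HH22, and 2320, 2774 and 1740 in somite cells at HH12, HH15 and HH20. The G2/M genes took 5447, 5921 and 5034 CPM in nasal and 4835, 6064 and 4764 in somite cells. The ratio of S to G2/M UMIs was 0.538, 0.470 and 0.364 in nasal and 0.480, 0.457 and 0.365 in somite cells. In PDGFRA cells the ratio was 0.532, 0.462 and 0.347 in nasal but 0.409, 0.366 and 0.386 in somite cells, where it had no order by stage.

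**Figure D2:**
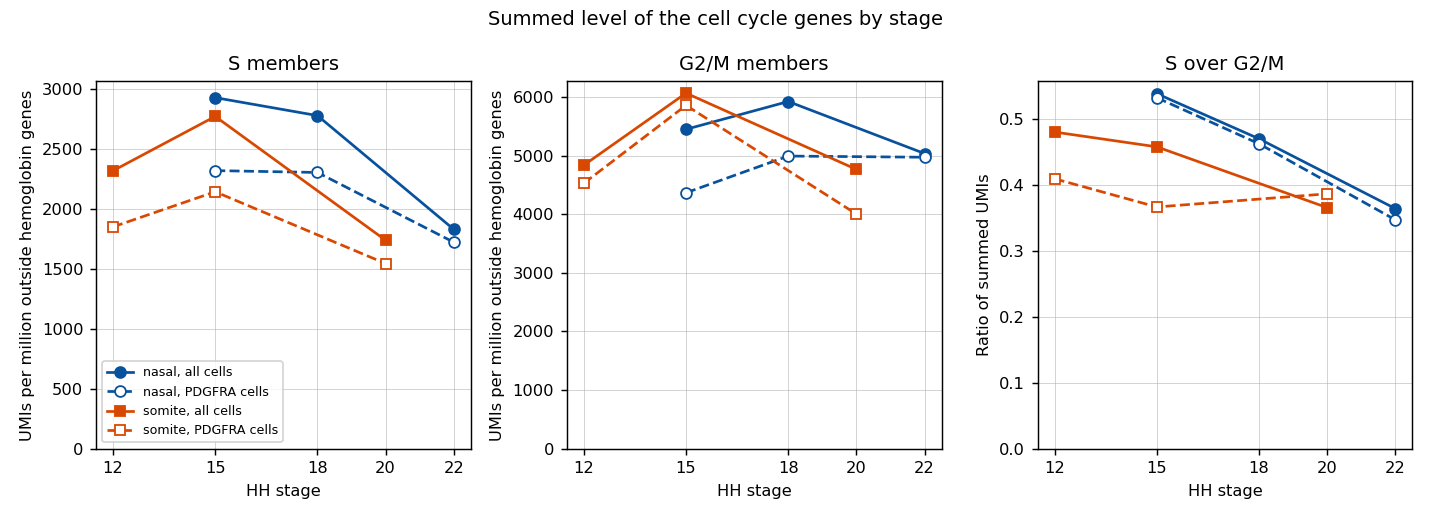
Summed S genes, summed G2/M genes (CPM outside hemoglobin genes) and their ratio against HH stage, with nasal libraries in blue and somite libraries in orange; filled points with solid lines are all cells and open points with dashed lines PDGFRA cells. In all cells the S sum is lowest at the last stage of each location, at 1831 (nasal HH22) and 1740 (somite HH20) CPM.

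With HH stage as a slope and location in the model, 1 of the 41 genes was called, beside 1.29% of all genes. It was CENPF, a large kinetochore protein made in G2, which had 167, 211 and 338 CPM in nasal libraries at HH15, HH18 and HH22 and 139, 177 and 271 CPM in somite libraries at HH12, HH15 and HH20. Its slope was 0.13 log2 units per stage (SE 0.02, adjusted p = 0.033 by edgeR's quasi-likelihood test), and each later stage of both locations was higher. The slope stayed between 0.12 and 0.14 when any 1 library was left out, but the call was kept only without somite HH12. Without any of the other 5 libraries the adjusted p was 0.054 to 0.34 (edgeR's quasi-likelihood test).

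The S genes had negative slopes in 13 of 15 cases, with a median of -0.08, and 8 of these had an unadjusted p under 0.05, but 0 were called. That unadjusted level was reached by 1914 of all 10115 genes. MCM5 had a slope of -0.10 per stage (SE 0.04, adjusted p = 0.20 by edgeR's quasi-likelihood test), PCNA of -0.09 (SE 0.04) and RRM2 of -0.08 (SE 0.04). CDC45, a part of the active helicase, had 65.8, 52.5 and 41.3 CPM in nasal and 55.4, 63.1 and 32.6 CPM in somite libraries, a slope of -0.10. Of the somite libraries the middle one, HH15, was the highest for these 4 genes.

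Among the 26 G2/M genes 13 slopes were positive and 13 negative, with a median near 0. CDK1 had a slope of -0.07 (SE 0.03, adjusted p = 0.26 by edgeR's quasi-likelihood test), TOP2A of 0.03 (adjusted p = 0.43 by edgeR's quasi-likelihood test), CCNB2 of -0.01 and CDC20 of 0.00. CENPE, a kinesin of the kinetochore, had 105, 121 and 150 CPM in nasal and 86.2, 119 and 121 CPM in somite libraries, a slope of 0.06. CENPE thus had the direction of CENPF, without passing the adjustment, whereas CDK1 had the direction of the S genes.

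The stage result depended on 1 library. Without somite HH12, 14 genes were called, 8 of the 15 S genes lower, 5 of the 26 G2/M genes lower and CENPF higher, beside 8.77% of all genes lower and 7.61% higher in that fit. MCM5 then had a slope of -0.15 per stage (adjusted p = 0.018), PCNA of -0.14 (adjusted p = 0.019) and CDK1 of -0.11 (adjusted p = 0.024, all by edgeR's quasi-likelihood test). Leaving out any other library gave 0 calls. The share of UMIs from hemoglobin genes was also highest at the last stage of each location. In cells that were not hemoglobin-rich, the summed S genes, outside hemoglobin genes, took 2945, 2797 and 1880 CPM in nasal libraries. In somite libraries they took 2320, 2784 and 1756 CPM. The cause of the lower S levels was not tested. For CENPF the slope was 0.13 without hemoglobin-rich cells (adjusted p = 0.040) and 0.13 in PDGFRA cells alone (adjusted p = 0.035, both by edgeR's quasi-likelihood test), settings chosen after seeing the data.

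**Figure D3:**
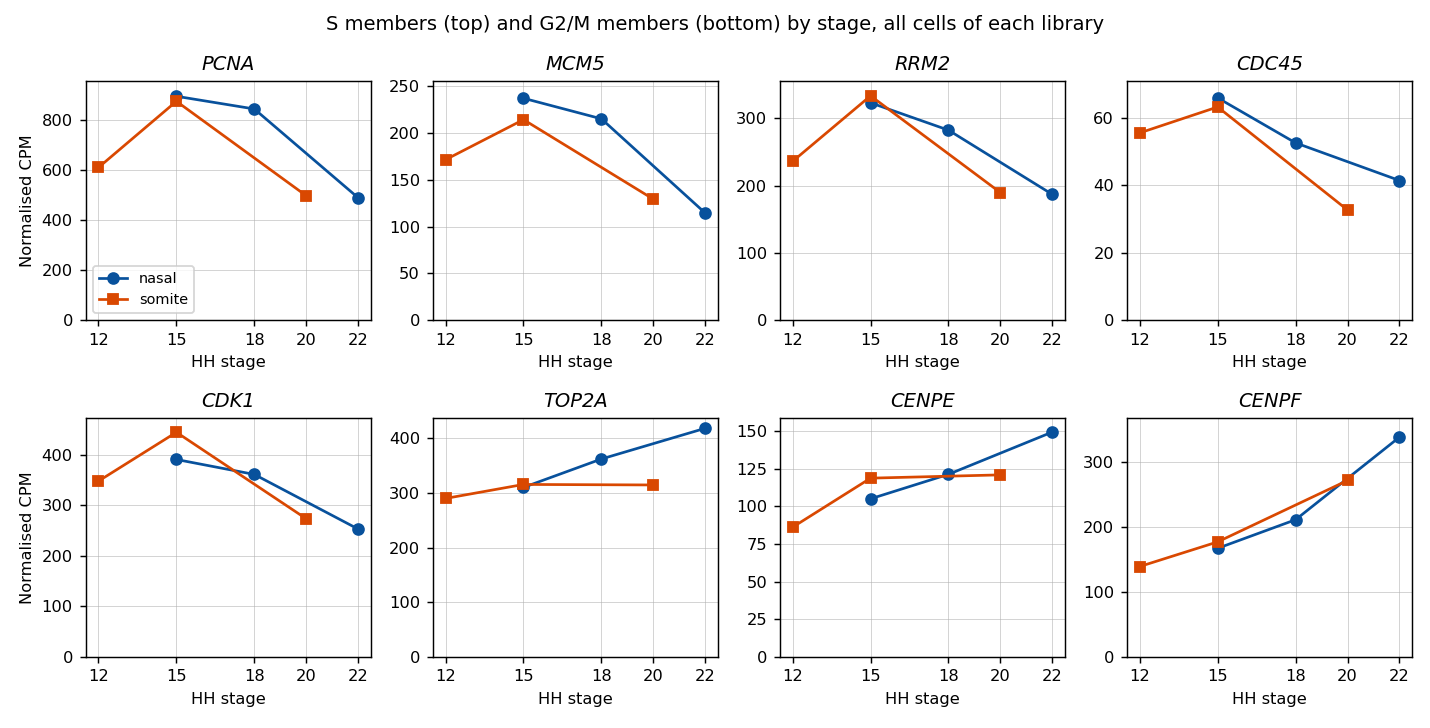
TMM-normalised CPM (y axis) of 4 S genes (PCNA, MCM5, RRM2, CDC45) and 4 G2/M genes (CDK1, TOP2A, CENPE, CENPF) against HH stage, with 1 point per library, nasal in blue and somite in orange. CENPF goes up to 338 CPM at nasal HH22 and 271 CPM at somite HH20, whereas MCM5 is at 114 and 129 CPM there.

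Cells with a CDK1 or TOP2A UMI were set against cells with neither, to see which other genes of the list go with these 2 in the same cells. There were 1083 to 3586 such cells per library, against 269 to 883 cells without. Of the other genes, 38 were tested and 30 were higher and 2 lower, beside 11.4% of all genes higher and 8.86% lower. Cells with more UMIs are more likely to hold a CDK1 or TOP2A UMI. After thinning to 1000 UMIs, 26 genes were higher and 2 lower, and the share of all genes is not given for that fit. The cells had been sorted before thinning, so this does not remove that selection by depth.

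The G2/M genes moved most, with 23 of 24 higher and a median log2 fold change of 1.07. KPNA2, a nuclear import factor with high levels in G2, had a lowest, median and highest level of 398, 514 and 663 CPM in CDK1 or TOP2A cells over the 6 libraries, against 96.7, 145 and 239 CPM in the other cells, and rose by 1.78 (SE 0.10, adjusted p = 1.4e-10 by edgeR's quasi-likelihood test). CENPE had 95.6, 132 and 176 CPM, against 30.7, 41.6 and 61.5 CPM in the other cells, and rose by 1.49 (SE 0.13, adjusted p = 5.5e-08). AURKA, a kinase of the spindle poles, had 156, 184 and 231 CPM, against 28.9, 67.0 and 125 CPM, and rose by 1.44 (SE 0.13, adjusted p = 8.1e-08). For these 3 genes the CDK1 or TOP2A cells of every library lay above the other cells of every library.

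CCNB2 had 211, 269 and 327 CPM in CDK1 or TOP2A cells, against 84.0, 113 and 158 CPM in the other cells, and rose by 1.17 (SE 0.09, adjusted p = 8.5e-09 by edgeR's quasi-likelihood test). CDC20 had 116, 194 and 222 CPM, against 52.2, 67.7 and 98.8 CPM, and rose by 1.33 (SE 0.14, adjusted p = 6.3e-07). NUSAP1, which bundles spindle microtubules, rose by 1.39 and BUB1B, a checkpoint kinase, by 1.26. CKS2, a small subunit of the CDK kinases, rose by 1.51. The kinesins KIF11 and KIF23 rose by 1.02 and 0.997, TPX2, which activates AURKA at the spindle, by 1.07, and the outer kinetochore genes NDC80 and NUF2 by 1.14 and 0.89. HMGB2, an abundant chromatin protein, rose by 1.06. The smallest rise was that of CCNA2, at 0.33. CENPA, the histone variant of the centromere, was not called, with 188 UMIs in all 6 libraries.

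The S genes moved less, with 7 of 14 higher, 2 lower and a median of 0.22. PCNA had 504, 728 and 922 CPM in CDK1 or TOP2A cells, against 403, 567 and 695 CPM in the other cells, and rose by 0.36 (SE 0.06, adjusted p = 8.8e-05 by edgeR's quasi-likelihood test). RRM2 had 187, 257 and 350 CPM, against 147, 232 and 266 CPM, and rose by 0.26 (SE 0.07, adjusted p = 0.017), with 1 library in the other direction. MCM5 had 114, 190 and 244 CPM, against 129, 155 and 198 CPM, a difference of 0.18 (SE 0.08, adjusted p = 0.11) that was not called. The other rises were those of RFC2 at 0.54, FEN1, which trims Okazaki fragments, at 0.51, RRM1 at 0.49, CDC45 at 0.42 and UHRF1 at 0.26.

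The licensing genes MCM3 and CDC6 went the other way. MCM3 had 48.3, 51.0 and 56.5 CPM in CDK1 or TOP2A cells, against 49.7, 64.0 and 78.1 CPM in the other cells, and fell by 0.30 (SE 0.08, adjusted p = 0.012 by edgeR's quasi-likelihood test), in all 6 libraries. CDC6, which loads the helicase onto origins before S phase, had 20 ± 4.95 CPM in CDK1 or TOP2A cells and 27.8 ± 8.59 CPM in the other cells (SD, n = 6 libraries each) and fell by 0.44 (adjusted p = 0.0085). It was lower in all 6 libraries.

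Of genes outside the list, 515 were called, were higher in all 6 libraries and reached 50 CPM in 1 group. The largest rises among these were CCNB3 at 1.94, GTSE1 at 1.37, TNFAIP8L1 at 1.32, a gene known in the files only as ENSGALG00000012836 at 1.27, CCNF at 1.25, RACGAP1 at 1.22, KNSTRN at 1.20, TACC3 at 1.17, INCENP at 1.09 and ASPM at 1.04. Most of these are cyclins (CCNB3, CCNF), spindle (KNSTRN, TACC3, ASPM) or cytokinesis genes (RACGAP1, INCENP).

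**Figure D4:**
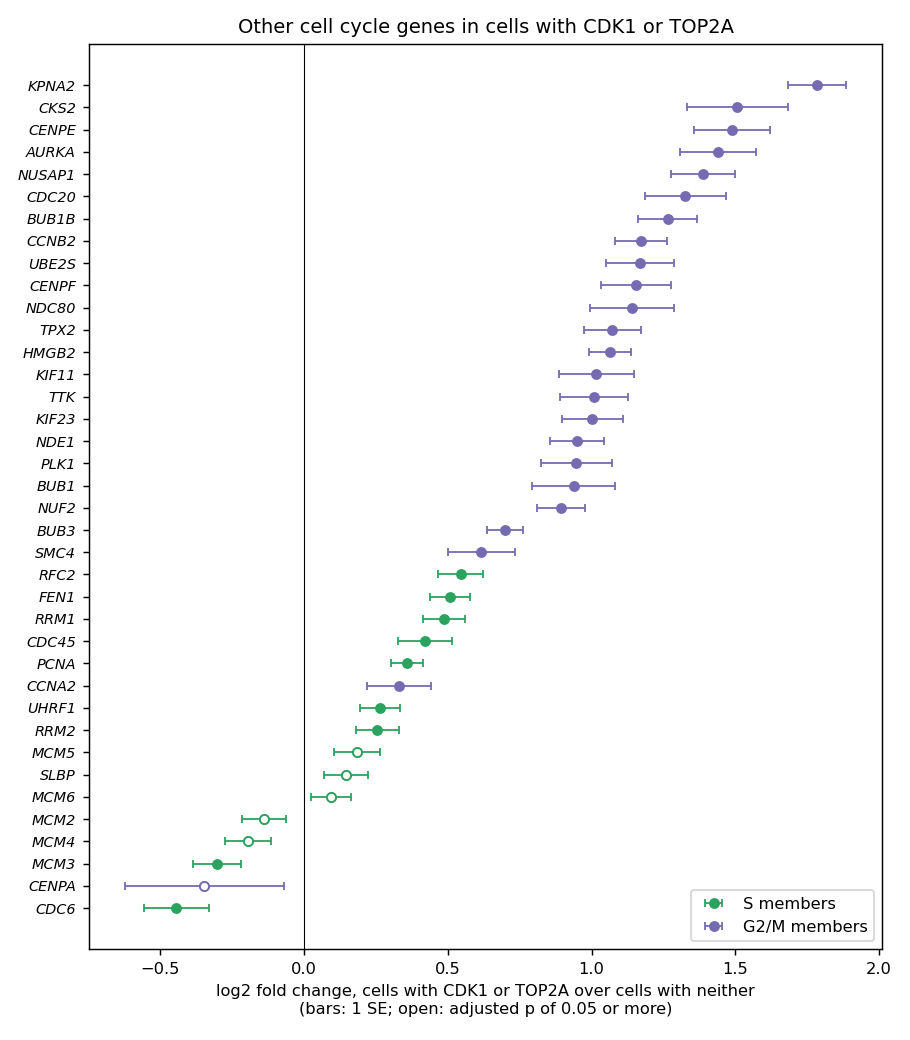
Log2 fold change (x axis) of each tested S (green) and G2/M (purple) gene between cells with a CDK1 or TOP2A UMI and cells with neither; bars are 1 SE and open points were not called. KPNA2 is the highest at 1.78, while MCM3 lies at -0.30 and CDC6 at -0.44.

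FABP7 cells had more of most cycle genes than other cells. Of 41 genes 30 were higher and 3 lower, beside 30.7% of all genes higher and 30.9% lower. Among S genes 11 of 15 were higher and 1 lower, with a median of 0.43, and among G2/M genes 19 of 26 were higher and 2 lower, with a median of 0.55, beside a median of -0.05 over all genes. There were 670 to 2736 FABP7 cells per library. FABP7 cells were deeper, with 5720716 UMIs in 1545 cells at nasal HH15, against 2800563 UMIs in 1144 other cells. Cells with more UMIs are more likely to hold a FABP7 UMI. Kinds of cells were set before thinning, so this selection by depth was not removed.

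CDK1 had a lowest, median and highest level of 332, 458 and 574 CPM in FABP7 cells, against 167, 192 and 270 CPM in the other cells, and rose by 1.13 (SE 0.07, adjusted p = 2.5e-09 by edgeR's quasi-likelihood test). The FABP7 cells of every library lay above the other cells of every library. TOP2A had 289, 333 and 443 CPM in FABP7 cells, against 298, 321 and 399 CPM, a difference of 0.05 (SE 0.06, adjusted p = 0.50 by edgeR's quasi-likelihood test), and was higher in 4 of 6 libraries. CDK1 and TOP2A, which together gave the shares above, thus did not move alike.

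The largest rises were UBE2S, NDE1 and KPNA2. UBE2S had 43.2, 69.2 and 93.8 CPM in FABP7 cells, against 14.4, 23.8 and 31.0 CPM in the other cells, and rose by 1.49 (SE 0.11, adjusted p = 6e-09 by edgeR's quasi-likelihood test). NDE1, a dynein partner at the spindle poles needed by dividing neural progenitors in mammals, had 56.8, 89.7 and 133 CPM, against 27.9, 35.3 and 45.1 CPM, and rose by 1.33 (SE 0.11, adjusted p = 1.1e-08). KPNA2 had 452, 616 and 806 CPM, against 229, 261 and 355 CPM, and rose by 1.18 (SE 0.08, adjusted p = 2.5e-09). All 3 were higher in each of the 6 libraries and did not overlap.

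CCNB2 had 236, 301 and 361 CPM in FABP7 cells, against 142, 158 and 178 CPM in the other cells, and rose by 0.89 (SE 0.07, adjusted p = 1.1e-08 by edgeR's quasi-likelihood test). CDC20 had 126, 191 and 230 CPM, against 99.2, 122 and 143 CPM, and rose by 0.56 (SE 0.07, adjusted p = 3e-06). Among S genes, PCNA had 559, 892 and 1125 CPM, against 344, 499 and 591 CPM, and rose by 0.79 (SE 0.07, adjusted p = 2.4e-08). MCM5 rose by 0.88 (SE 0.08), with 133, 242 and 309 CPM against 96.0, 122 and 143 CPM, and RRM2 by 0.88 (SE 0.07), with 221, 322 and 419 CPM against 107, 174 and 220 CPM.

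The remaining rises in FABP7 cells ran from 0.17 for UHRF1 to 1.03 for BUB3, with RFC2 at 0.99, HMGB2 at 0.95 and NUF2 at 0.88. The genes not called were MCM2, MCM3, MCM4, TOP2A, BUB1, PLK1, SMC4 and CENPF, whose differences lay between -0.16 and 0.10. Of the helicase subunits MCM5 and MCM6 were thus called and MCM2, MCM3 and MCM4 were not.

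In FABP7 cells 3 genes fell. CCNA2 had 63.0, 78.6 and 102 CPM in FABP7 cells, against 101, 114 and 163 CPM in the other cells, and fell by 0.59 (SE 0.09, adjusted p = 1.4e-05 by edgeR's quasi-likelihood test), in all 6 libraries. CDC6 fell by 0.54 (18.5 ± 4.65 CPM in FABP7 cells and 27.5 ± 8.53 CPM in the other cells, SD, n = 6 each), and CENPA by 0.54 from 93 and 95 UMIs. Of these, CDC6 was lower in 6 of 6 libraries and CENPA in 5.

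EPCAM cells had genes of the list called in both directions. Of 41 genes 13 were higher and 7 lower, beside 19.2% of all genes higher and 19.9% lower. The share of lower genes was thus close to that of all genes. There were 6 of 15 S genes higher and 2 lower (median 0.13), and of the G2/M genes 7 of 26 were higher and 5 lower (median -0.05). There were 49 to 405 EPCAM cells per library. They were deeper as well, with 2264343 UMIs in 405 cells at somite HH12, against 8864906 UMIs in 2606 other cells. The selection by depth given for FABP7 cells thus applies to EPCAM cells too.

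TOP2A and CDK1 had opposite signs in EPCAM cells. TOP2A had 211, 256 and 278 CPM in EPCAM cells, against 290, 308 and 413 CPM in the other cells, and fell by 0.36 (SE 0.08, adjusted p = 0.0019 by edgeR's quasi-likelihood test), with no overlap. CDK1 had 244, 436 and 488 CPM, against 241, 331 and 423 CPM, and rose by 0.32 (SE 0.09, adjusted p = 0.007), in 5 of 6 libraries. CCNA2 had 35.6, 47.9 and 66.6 CPM, against 77.5, 97.8 and 114 CPM, and fell by 0.96 (SE 0.15, adjusted p = 5.1e-05), with no overlap.

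CENPF had 98.9, 122 and 177 CPM in EPCAM cells, against 139, 194 and 336 CPM in the other cells, and fell by 0.65 (SE 0.10, adjusted p = 7.9e-05 by edgeR's quasi-likelihood test). SMC4, a condensin subunit that compacts chromosomes, had 37.9, 43.5 and 56.9 CPM, against 52.3, 62.0 and 77.5 CPM, and fell by 0.38 (SE 0.13, adjusted p = 0.025). CDC6 fell by 1.19 with 62 UMIs in all EPCAM cells, MCM4 by 0.38 and PLK1, a mitotic kinase, by 0.30. SMC4 was lower in 5 of 6 libraries, and CDC6 and MCM4 in all 6.

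The S genes that rose in EPCAM cells were led by RFC2, a clamp loader subunit, with 167, 276 and 341 CPM in EPCAM cells, against 122, 168 and 213 CPM in the other cells, a rise of 0.66 (SE 0.08, adjusted p = 1e-05 by edgeR's quasi-likelihood test). PCNA had 636, 927 and 1084 CPM, against 462, 688 and 848 CPM, and rose by 0.42 (SE 0.08, adjusted p = 0.0003). RRM2 had 258, 358 and 410 CPM, against 176, 242 and 311 CPM, and rose by 0.50 (SE 0.08, adjusted p = 0.00015). MCM5 rose by 0.39 (SE 0.09), with 151, 231 and 279 CPM against 108, 179 and 227 CPM.

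UBE2S had 57.5, 69.3 and 87.0 CPM in EPCAM cells, against 28.9, 45.4 and 63.2 CPM, and rose by 0.71 (SE 0.13, adjusted p = 0.00026 by edgeR's quasi-likelihood test). CCNB2 had 198, 280 and 416 CPM, against 183, 233 and 274 CPM, a difference of 0.28 (adjusted p = 0.053) that was not called. CDC20 had 87.1, 138 and 211 CPM, against 113, 156 and 185 CPM, a difference of -0.10 (adjusted p = 0.52). Both overlapped between EPCAM cells and the other cells. The remaining rises were those of SLBP at 0.47, NUF2 at 0.42, AURKA and NDE1 at 0.40, BUB3 at 0.39, FEN1 at 0.32 and HMGB2 at 0.26.

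**Figure D5:**
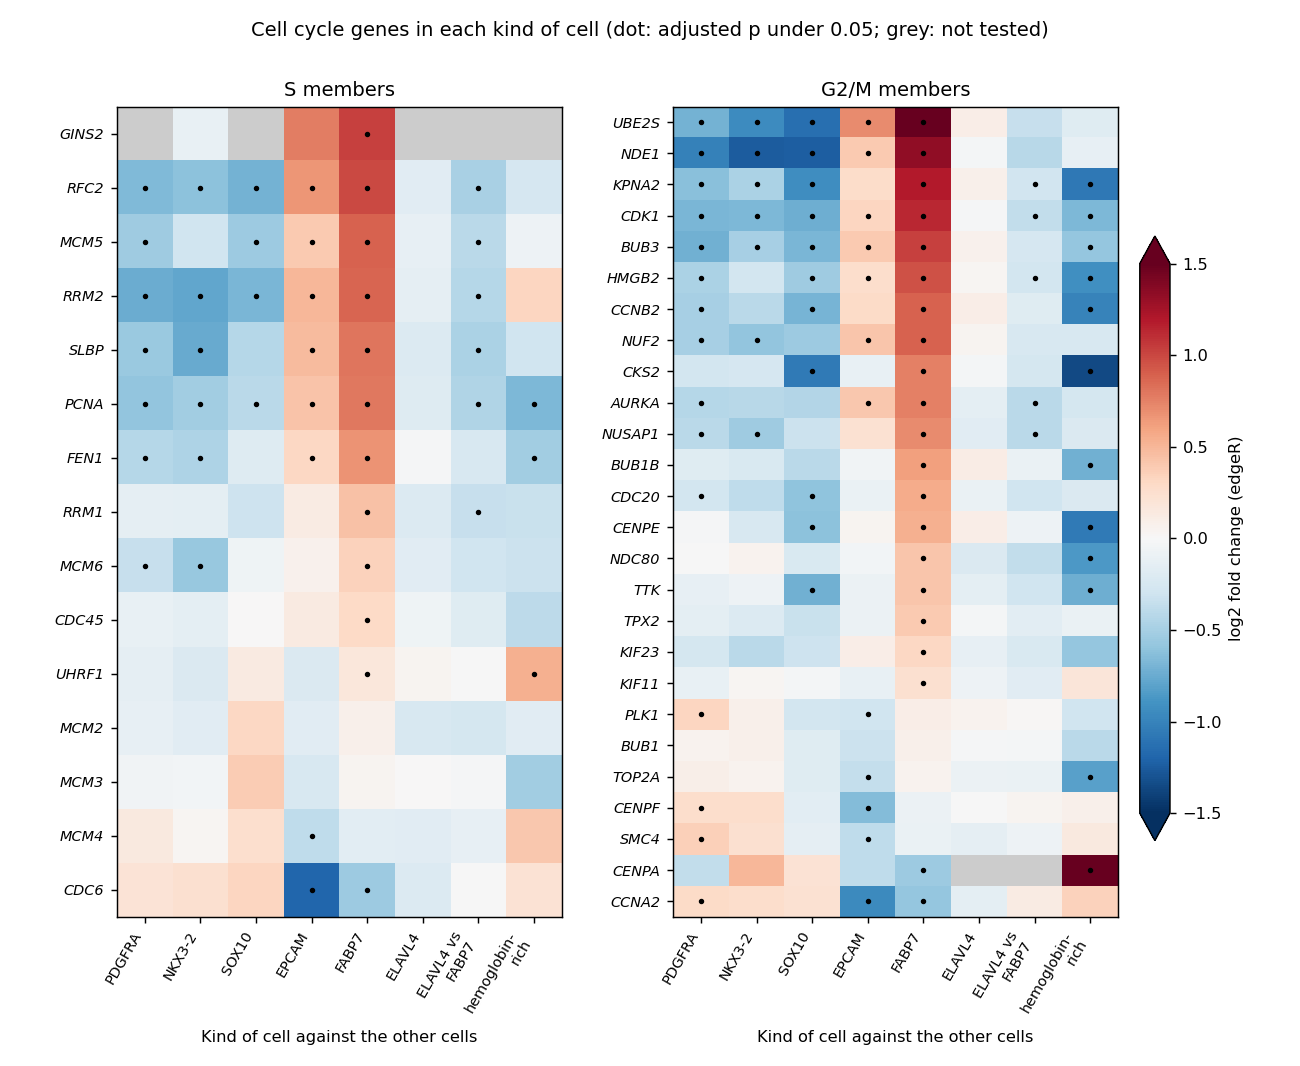
Log2 fold change of each S and G2/M gene (rows) in the marked cells over the other cells (columns by kind of cell, with ELAVL4 cells also set against FABP7 cells), from -1.5 to 1.5; a dot is an adjusted p under 0.05 and grey was not tested. CDK1 is at 1.13 in FABP7 cells and -0.69 in PDGFRA cells, while TOP2A is at 0.05 and 0.08 there.

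In PDGFRA cells the cycle genes that were called were mostly lower than in the other cells. Of 40 genes 4 were higher, 18 lower and 18 not called, beside 11.6% of all genes higher and 18.2% lower. Of the S genes 7 of 14 were lower (median -0.24), and of the G2/M genes 4 of 26 were higher and 11 lower (median -0.27), beside a median of 0.02 over all genes. There were 114 to 348 PDGFRA cells per library. With at least 2 PDGFRA UMIs required, 6 genes were called, all lower, and after thinning 14 were lower. The shares of all genes called under these settings are not given.

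CDK1 had a lowest, median and highest level of 185, 227 and 300 CPM in PDGFRA cells, against 280, 394 and 485 CPM in the other cells. Its mean was 236 ± 45.5 CPM in PDGFRA cells and 380 ± 76.4 CPM in the other cells (SD, n = 6 libraries each), and it fell by 0.69 (SE 0.08, adjusted p = 3.1e-07 by edgeR's quasi-likelihood test), in all 6 libraries. TOP2A had 316, 386 and 449 CPM, against 315, 334 and 447 CPM, a difference of 0.08 (SE 0.06, adjusted p = 0.33) that was positive in 6 of 6 libraries but not called.

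NDE1 had 25.2, 39.9 and 47.6 CPM in PDGFRA cells, against 48.4, 76.7 and 104 CPM, and fell by 1.01 (SE 0.12, adjusted p = 1e-06 by edgeR's quasi-likelihood test). RRM2 had 124, 170 and 227 CPM, against 208, 290 and 364 CPM, and fell by 0.75 (SE 0.07, adjusted p = 4.3e-08). BUB3, a spindle checkpoint protein, had 119, 163 and 184 CPM, against 186, 271 and 340 CPM, and fell by 0.73 (SE 0.08, adjusted p = 5.7e-07). NDE1 and BUB3 did not overlap between PDGFRA cells and the other cells.

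PCNA had 397, 517 and 595 CPM in PDGFRA cells, against 536, 806 and 973 CPM, and fell by 0.59 (SE 0.07, adjusted p = 2.6e-07 by edgeR's quasi-likelihood test). MCM5 had 97.3, 138 and 160 CPM, against 125, 214 and 258 CPM, and fell by 0.54 (SE 0.09, adjusted p = 6.3e-05), in 5 of 6 libraries. CCNB2 had 141, 171 and 284 CPM, against 218, 266 and 301 CPM, and fell by 0.49 (SE 0.09, adjusted p = 0.00017). CDC20 had 105, 123 and 194 CPM, against 120, 178 and 211 CPM, and fell by 0.28 (SE 0.09, adjusted p = 0.017), in 5 of 6 libraries.

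The other genes that fell in PDGFRA cells were UBE2S by 0.71, RFC2 by 0.66, KPNA2 by 0.63, SLBP by 0.56, NUF2 by 0.50, HMGB2 by 0.48, FEN1 by 0.43, AURKA by 0.42, NUSAP1 by 0.40 and MCM6 by 0.34. Apart from AURKA, at 5 of 6, these were lower in all 6 libraries. MCM2, MCM3, MCM4 and CDC6 lay between -0.13 and 0.21 and were not called.

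In PDGFRA cells 4 G2/M genes rose. SMC4 had 67.0, 87.6 and 98.8 CPM in PDGFRA cells, against 57.2, 63.0 and 83.3 CPM, and rose by 0.36 (SE 0.10, adjusted p = 0.0074 by edgeR's quasi-likelihood test), in all 6 libraries. PLK1 had 73.5, 99.3 and 116 CPM, against 76.1, 76.9 and 84.2 CPM, and rose by 0.32 (SE 0.10, adjusted p = 0.014), in 5 of 6. CCNA2 had 82.1, 116 and 182 CPM, against 81.0, 101 and 113 CPM, and rose by 0.28 (SE 0.09, adjusted p = 0.024), in all 6. CENPF rose by 0.27. These rises depended on the setting, as 0 genes were called higher after thinning or with at least 2 PDGFRA UMIs, and SMC4 was then at 0.38 (adjusted p = 0.081) and -0.0026 (adjusted p = 1.0, both by edgeR's quasi-likelihood test).

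Several genes thus had values of opposite sign in these comparisons, which share libraries and cells. The rises in PDGFRA cells were 4 of 40 genes, beside 11.6% of all genes higher. None of them was called after thinning or with at least 2 PDGFRA UMIs. CCNA2 had -0.59 in FABP7 and -0.96 in EPCAM cells, against 0.28 in PDGFRA cells. SMC4 had -0.38 in EPCAM cells against 0.36 in PDGFRA cells, a rise that was lost with at least 2 PDGFRA UMIs (-0.0026), and CENPF had -0.65 in EPCAM cells against 0.27 in PDGFRA cells. UBE2S had 1.49 in FABP7 and 0.71 in EPCAM cells, against -0.71 in PDGFRA cells.

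NKX3-2 cells of the somite libraries had lower levels of 13 of 41 genes and higher levels of 0, beside 4.37% of all genes higher and 6.32% lower. By phase, of the S genes 6 of 15 were lower (median -0.21), and of the G2/M genes 7 of 26 (median -0.25), beside a median of 0.00 over all genes. There were 388, 137 and 88 NKX3-2 cells at HH12, HH15 and HH20. With DESeq2 6 genes were called, where it called 304 of all genes against 980 by edgeR. After thinning 7 were called, and the share of all genes is not given for that fit.

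CDK1 had 239, 237 and 253 CPM in NKX3-2 cells at HH12, HH15 and HH20, against 387, 491 and 296 CPM in the other cells, and fell by 0.67 (SE 0.14, adjusted p = 0.00062 by edgeR's quasi-likelihood test). TOP2A had 303, 368 and 353 CPM, against 307, 339 and 337 CPM, a difference of 0.05 (SE 0.13, adjusted p = 0.87). CDK1 was lower in all 3 libraries and varied little within NKX3-2 cells, and TOP2A overlapped.

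NDE1 had 29.9, 44.6 and 38.5 CPM in NKX3-2 cells, against 78.7, 105 and 76.3 CPM, and fell by 1.25 (SE 0.21, adjusted p = 7.8e-06 by edgeR's quasi-likelihood test). UBE2S had 41.4, 25.1 and 16.0 CPM, against 58.7, 60.6 and 74.9 CPM, and fell by 0.95 (SE 0.23, adjusted p = 0.0031). RRM2 had 147, 181 and 157 CPM, against 265, 368 and 206 CPM, and fell by 0.78 (SE 0.15, adjusted p = 0.00011). None of these 3 genes overlapped between NKX3-2 cells and the other cells.

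PCNA had 489, 591 and 401 CPM in NKX3-2 cells, against 667, 958 and 541 CPM, and fell by 0.52 (SE 0.13, adjusted p = 0.0035 by edgeR's quasi-likelihood test). CCNB2 had 175, 198 and 196 CPM, against 212, 310 and 248 CPM, a difference of -0.41 (adjusted p = 0.052). CDC20 had 147, 151 and 164 CPM, against 208, 206 and 181 CPM, a difference of -0.39 (adjusted p = 0.085), and MCM5 had 159, 148 and 138 CPM, against 185, 235 and 139 CPM, a difference of -0.30 (adjusted p = 0.22). The other falls were those of SLBP by 0.76, RFC2 by 0.62, NUF2 by 0.59, MCM6 by 0.57, NUSAP1 by 0.54, BUB3 by 0.50, KPNA2 by 0.47 and FEN1 by 0.46. CCNB2, CDC20 and MCM5 were lower in all 3 libraries without being called. The count of lower genes was 6 without HH12, 6 without HH15 and 16 without HH20. The shares of all genes are not given for these fits, so the changes in count are not read as particular to the listed genes.

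DMRT2 cells could be compared at HH12 and HH20 only, with 85 and 21 cells, and 0 of 40 genes were called, beside 0.910% of all genes. At an unadjusted p under 0.05 there were 9 genes by edgeR's quasi-likelihood test, beside 632 of all 8901 genes, and DESeq2 called 0. The median was -0.41 for the S genes and -0.06 for the G2/M genes, beside -0.07 over all genes. RRM2 had 164 and 131 CPM in DMRT2 cells at HH12 and HH20, against 268 and 219 CPM in the other cells, a difference of -0.71 (SE 0.22, adjusted p = 0.10 by edgeR's quasi-likelihood test). MCM5 had 123 and 120 CPM, against 194 and 149 CPM (difference -0.56), and PCNA had 527 and 438 CPM, against 687 and 573 CPM (difference -0.38). CDK1 had 330 and 252 CPM, against 391 and 315 CPM (difference -0.27), and TOP2A had 343 and 340 CPM, against 323 and 362 CPM (difference 0.03). CCNB2 had 197 and 241 CPM, against 220 and 263 CPM (difference -0.15), and CDC20 had 207 and 175 CPM, against 212 and 192 CPM (difference -0.06). The S genes were lower in DMRT2 cells of both stages where values are given, and TOP2A differed in sign between the stages.

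SOX10 cells had lower levels of 15 of 40 genes and higher levels of 0, beside 3.70% of all genes higher and 6.54% lower. Of the G2/M genes 11 of 26 were lower, with a median of -0.42, and of the S genes 4 of 14, with a median of -0.13, beside -0.04 over all genes. The summed S to G2/M ratio in SOX10 cells was 0.748 in nasal HH15 cells and a mean of 0.512 over the somite libraries. There were 20 SOX10 cells in the nasal HH15 library and 40, 204 and 160 in the somite libraries.

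KPNA2 had 164 CPM in nasal HH15 SOX10 cells and 154, 298 and 385 CPM in somite SOX10 cells, against 529 CPM in the other nasal HH15 cells and 390, 646 and 447 CPM in the other somite cells, and fell by 0.93 (SE 0.16, adjusted p = 7.6e-07 by edgeR's quasi-likelihood test). NDE1 had 13.7, 32.0, 45.4 and 39.8 CPM in the same order of libraries, against 72.6, 75.9, 109 and 83.0 CPM, and fell by 1.23 (SE 0.25, adjusted p = 7.4e-05). UBE2S had 27.4, 38.4, 16.2 and 43.3 CPM, against 34.4, 59.0, 64.1 and 79.6 CPM, and fell by 1.13 (SE 0.28, adjusted p = 0.0018). All 3 were lower in each of the 4 libraries.

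CDK1 had 164, 179, 253 and 312 CPM in SOX10 cells, against 416, 385, 511 and 310 CPM, and fell by 0.74 (SE 0.16, adjusted p = 0.00027 by edgeR's quasi-likelihood test). It was lower in 3 of 4 libraries and near the level of the other cells at somite HH20. CCNB2 had 191, 70.4, 178 and 225 CPM, against 279, 217, 324 and 263 CPM, and fell by 0.70 (SE 0.18, adjusted p = 0.0018). TOP2A had 178, 288, 332 and 350 CPM, against 330, 319, 349 and 358 CPM, a difference of -0.18 (SE 0.16, adjusted p = 0.55) that was not called.

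RRM2 had 178, 179, 212 and 158 CPM in SOX10 cells, against 344, 260, 381 and 222 CPM, and fell by 0.69 (SE 0.17, adjusted p = 0.0016 by edgeR's quasi-likelihood test), with no overlap. PCNA had 684, 544, 630 and 497 CPM, against 949, 671, 992 and 572 CPM, and fell by 0.41 (SE 0.14, adjusted p = 0.045). MCM5 fell by 0.55 (SE 0.18), with 137, 186, 147 and 100 CPM against 252, 188, 244 and 152 CPM, and CDC20 by 0.60 (SE 0.19), with 68.4, 70.4, 126 and 199 CPM against 143, 210, 215 and 189 CPM. The count of lower genes was 2 without somite HH15, 9 without somite HH12, 11 without the nasal library and 15 without somite HH20. For these fits the shares of all genes are not given. DESeq2 called 5 genes, where it called 284 of all genes against 888 by edgeR. The other falls were those of CKS2 by 1.06, TTK, a spindle checkpoint kinase, by 0.72, RFC2 by 0.70, BUB3 by 0.69, CENPE by 0.61 and HMGB2 by 0.53.

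No difference in cycle genes was called between cells with 1 or more ELAVL4 UMIs and the other cells, but genes were called lower under stricter definitions. Of 39 genes 0 were called, beside 2.72% of all genes, and DESeq2 called 0. At an unadjusted p under 0.05 by edgeR's quasi-likelihood test there were 4 genes, beside 1120 of all 8638 genes. With at least 2 ELAVL4 UMIs, 21 of 39 genes were lower and 0 higher, beside 6.46% of all genes lower and 5.995% higher. That fit used nasal HH18 and HH22 and somite HH15 and HH20, the libraries with at least 20 such cells. With 2 other neuron markers 19 were lower and 0 higher, beside 5.76% of all genes lower and 5.97% higher. The fit with neuron markers used nasal HH15, HH18 and HH22 and somite HH20. CDK1 had a lowest, median and highest level of 239, 358 and 461 CPM in ELAVL4 cells, against 256, 356 and 454 CPM, a difference of -0.02 (SE 0.08, adjusted p = 0.95 by edgeR's quasi-likelihood test). TOP2A had 231, 320 and 398 CPM, against 292, 325 and 433 CPM, a difference of -0.09 (SE 0.07). PCNA had 371, 681 and 813 CPM, against 503, 733 and 904 CPM, a difference of -0.19 (SE 0.07, adjusted p = 0.18), lower in 5 of 6 libraries. MCM5 had 99.0, 186 and 257 CPM, against 119, 196 and 238 CPM, and RRM2 had 147, 262 and 304 CPM, against 192, 262 and 339 CPM, both at a difference of -0.13. CCNB2 had 209, 253 and 337 CPM, against 197, 248 and 287 CPM (difference 0.10), and CDC20 had 105, 143 and 201 CPM, against 113, 171 and 193 CPM (difference -0.10). All of these overlapped.

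The other cells of that comparison include mesenchyme and blood, so ELAVL4 cells were also set against FABP7 cells without ELAVL4. There 0 of 39 genes were higher and 11 lower, beside 3.21% of all genes higher and 2.51% lower. By phase, of the S genes 6 of 14 were lower (median -0.28) and of the G2/M genes 5 of 25 (median -0.23), beside -0.01 over all genes.

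PCNA had 356, 666 and 819 CPM in ELAVL4 cells, against 558, 871 and 1093 CPM in FABP7 cells, and fell by 0.45 (SE 0.07, adjusted p = 0.00031 by edgeR's quasi-likelihood test), in all 6 libraries. RFC2 had 84.2, 184 and 243 CPM, against 166, 230 and 286 CPM, and fell by 0.49 (SE 0.09, adjusted p = 0.0028). SLBP, which binds the stem-loop of histone mRNA, had 31.4, 62.3 and 93.8 CPM, against 64.2, 88.7 and 111 CPM, and fell by 0.48 (SE 0.13, adjusted p = 0.025), in 5 of 6. The ranges over libraries overlapped for all 3 genes.

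RRM2 had 141, 257 and 301 CPM in ELAVL4 cells, against 222, 313 and 407 CPM in FABP7 cells, and fell by 0.42 (SE 0.08, adjusted p = 0.0025 by edgeR's quasi-likelihood test). MCM5 had 94.8, 182 and 259 CPM, against 135, 236 and 297 CPM, and fell by 0.41 (SE 0.08, adjusted p = 0.0046). CDK1 had 229, 351 and 460 CPM, against 322, 445 and 559 CPM, and fell by 0.36 (SE 0.08, adjusted p = 0.0078), in 5 of 6 libraries. TOP2A had 233, 315 and 383 CPM, against 279, 325 and 442 CPM, a difference of -0.10 (adjusted p = 0.46). CCNB2 had 202, 247 and 336 CPM, against 230, 290 and 349 CPM (difference -0.18), and CDC20 had 105, 140 and 199 CPM, against 121, 195 and 227 CPM (difference -0.30), and neither was called. NUSAP1 and AURKA fell by 0.40, RRM1 by 0.35, and KPNA2 and HMGB2 by 0.28. Without somite HH20, 5 genes were called, and the share of all genes is not given for that fit.

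Neuron-like cells had much lower levels. Set against FABP7 cells in the 4 libraries with at least 20 such cells, 27 of 39 genes were lower and 0 higher, beside 5.62% of all genes lower and 6.26% higher in that fit. Among them were 10 of 14 S genes and 17 of 25 G2/M genes. TOP2A, which was not called in ELAVL4 cells, had 157 ± 37.5 CPM in neuron-like cells and 357 ± 62.5 CPM in FABP7 cells (SD, n = 4 libraries each) and fell by 1.11 (adjusted p = 1.5e-06 by edgeR's quasi-likelihood test). MCM2, a helicase subunit, had 47.5 ± 8.01 CPM in neuron-like cells and 111 ± 22.8 CPM in FABP7 cells and fell by 1.21. PCNA had 438 ± 199 CPM in neuron-like cells and 814 ± 254 CPM in FABP7 cells and fell by 0.96 (adjusted p = 3.5e-07). CDK1 fell by 0.62, CENPE by 0.67 and CCNB2 by 0.44.

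Hemoglobin-rich cells had lower levels of 13 of 40 genes and higher levels of 2, beside 29.2% of all genes lower and 12% higher, so the share of lower genes was close to that of all genes. The median was -0.27 for the 14 S genes tested and -0.35 for the 26 G2/M genes, beside -0.36 over all genes. There were 1 S gene higher and 2 lower, and 1 G2/M gene higher and 11 lower. The cells were 26, 100 and 152 in the nasal and 35 and 102 in the somite HH15 and HH20 libraries. With the hemoglobin genes left out of the sums, a setting chosen after seeing the data, again 2 genes were higher and 13 lower, and the median over all genes was -0.34.

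The largest falls among genes that reached 50 CPM were those of KPNA2, CENPE and CCNB2. KPNA2 had 136, 173 and 142 CPM in nasal and 123 and 133 CPM in somite hemoglobin-rich cells, against 292, 361 and 285 CPM in the other nasal and 334 and 256 CPM in the other somite cells, and fell by 1.07 (SE 0.15, adjusted p = 2.4e-11 by edgeR's quasi-likelihood test). CENPE had 22.7, 23.6, 51.2, 53.6 and 40.5 CPM in the same order, against 61.7, 72.7, 101, 70.4 and 79.9 CPM, and fell by 1.06 (SE 0.22, adjusted p = 1.1e-05). CCNB2 had 60.7, 89.2, 96.8, 30.6 and 67.5 CPM, against 154, 153, 141, 169 and 151 CPM, and fell by 0.997 (SE 0.18, adjusted p = 1.5e-07). None of the 3 overlapped with the other cells.

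TOP2A had 98.6, 115, 199, 53.6 and 124 CPM in hemoglobin-rich cells, against 182, 216, 277, 188 and 207 CPM, and fell by 0.81 (SE 0.16, adjusted p = 2.8e-06 by edgeR's quasi-likelihood test). CDK1 had 167, 115, 155, 91.9 and 99.0 CPM, against 229, 216, 164, 265 and 180 CPM, and fell by 0.67 (SE 0.16, adjusted p = 0.00011). PCNA had 220, 315, 253, 299 and 225 CPM, against 525, 503, 322, 519 and 325 CPM, and fell by 0.67 (SE 0.14, adjusted p = 6.7e-06). All 3 were lower in each of the 5 libraries. The other falls were those of CKS2 by 1.36, HMGB2 by 0.92, NDC80 by 0.86, TTK by 0.73, BUB1B by 0.72, BUB3 by 0.58 and FEN1 by 0.52.

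Other genes were called higher or were not called. UHRF1 had 68.2, 136, 156, 61.3 and 137 CPM in hemoglobin-rich cells, against 86.6, 96.7, 94.3, 78.2 and 65.0 CPM, and rose by 0.53 (SE 0.17, adjusted p = 0.0062 by edgeR's quasi-likelihood test), though in 3 of 5 libraries only. RRM2 had 121, 210, 191, 237 and 162 CPM, against 190, 167, 114, 197 and 121 CPM, a difference of 0.32 (SE 0.15, adjusted p = 0.071). MCM5 had 60.7, 89.2, 113, 68.9 and 106 CPM, against 139, 128, 70.3, 127 and 82.5 CPM, a difference of -0.07. It lay above the other cells at nasal HH22 and somite HH20 and below them in the earlier libraries. CDC20 had 98.6, 68.2, 87.2, 61.3 and 83.3 CPM, against 78.3, 67.7, 101, 112 and 109 CPM, a difference of -0.21. It lay below the other cells at nasal HH22 and in both somite libraries. CENPA was called higher from 19 UMIs in hemoglobin-rich cells, which is too few to give its level.

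Outside hemoglobin genes the summed levels of hemoglobin-rich cells, in CPM, were 1407, 1889 and 1455 for S genes in nasal and 1765 and 1469 in somite libraries, and 3159, 3135 and 3204 for G2/M genes in nasal and 2726 and 2578 in somite libraries. All cells of the same locations averaged 2514 ± 596 for S and 5468 ± 444 for G2/M genes in nasal and 2278 ± 518 for S and 5221 ± 731 for G2/M genes in somite libraries (SD, n = 3 each). The ratio of S to G2/M UMIs was 0.445, 0.603 and 0.454 in nasal and 0.647 and 0.570 in somite hemoglobin-rich cells, which was above the ratio of all cells in 4 of 5 libraries, the exception being nasal HH15.

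The regulators of G1 and cycle exit, a list of 21 genes in the files, had 5 of 19 tested genes higher and 3 lower in hemoglobin-rich cells, beside 12% of all genes higher and 29.2% lower. In FABP7 cells 4 of 19 were higher and 8 lower, beside 30.7% of all genes higher and 30.9% lower. In EPCAM cells 1 of 19 was higher and 8 lower, beside 19.2% of all genes higher and 19.9% lower. CCND3, the D cyclin of blood cells in mammals, had 378 ± 58.8 CPM in hemoglobin-rich cells and 15.1 ± 1.79 CPM in the other cells (SD, n = 5 libraries each) and rose by 4.63 (SE 0.16, adjusted p = 2.1e-180 by edgeR's quasi-likelihood test). E2F1, an activator of S-phase genes, had 70.5 ± 27.9 CPM in hemoglobin-rich cells and 13.5 ± 2.98 CPM in the other cells and rose by 2.33 (SE 0.22, adjusted p = 8.2e-25). CCND1 had 43.5 ± 12.2 CPM in hemoglobin-rich cells and 203 ± 44.4 CPM in the other cells and fell by 2.09 (SE 0.19, adjusted p = 1.6e-26). CCND2 fell by 1.73 and CDK6, a kinase of the D cyclins, by 1.01. All 5 genes moved the same way in each of the 5 libraries.

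Other genes of the same phases, from lists of 45 further S genes and 39 further G2/M genes in the files, gave these counts. In FABP7 cells 25 of 44 tested S genes were higher and 6 lower, and 24 of 38 G2/M genes were higher and 7 lower, beside 30.7% of all genes higher and 30.9% lower. In PDGFRA cells 4 of 44 S genes were higher and 14 lower, and 4 of 37 G2/M genes were higher and 10 lower, beside 11.6% and 18.2% of all genes. In EPCAM cells 12 of 44 S genes were higher and 8 lower, and 3 of 37 G2/M genes were higher and 9 lower, beside 19.2% and 19.9% of all genes. In CDK1 or TOP2A cells 15 of 44 S genes were higher and 3 lower, and 33 of 37 G2/M genes were higher and 0 lower, beside 11.4% and 8.86% of all genes.

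In NKX3-2 cells 0 of 44 further S genes were higher and 6 lower, and 1 of 38 further G2/M genes was higher and 5 lower, beside 4.37% and 6.32% of all genes. In SOX10 cells 2 of 44 further S genes and 4 of 38 further G2/M genes were lower and 0 higher, beside 6.54% of all genes lower. In ELAVL4 cells against FABP7 cells 6 of 44 further S genes and 4 of 37 further G2/M genes were lower, beside 2.51% of all genes, as was MYBL2, a transcription factor of late cycle genes, with 49.4 ± 12.5 CPM in ELAVL4 cells and 64.1 ± 12.6 CPM in FABP7 cells (SD, n = 6 each). By HH stage, CCNB3, a B cyclin, rose by 0.19 log2 units per stage (SE 0.02, adjusted p = 0.016) and CCND3 by 0.16 (SE 0.03, adjusted p = 0.033, both by edgeR's quasi-likelihood test). Since CCND3 lay far higher in hemoglobin-rich cells, and these were more frequent at the last stages, its slope and their number moved together. The part of these cells in that slope was not tested.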

How the data were processed

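Cells of 6 chicken libraries were profiled with 10x Chromium 3' chemistry after trypsin dissociation. The authors deposited raw UMI counts per gene and cell, made with Cell Ranger 2.0.1 on GRCg6a with gene models extended at the 3' end. Counts were used as deposited, with no normalization by the authors. The cell filters of the study's methods were applied: UMI totals below 0.2 of the library median or above 4 times its mean, outlying mitochondrial share (over 3 median absolute deviations and 0.1, unless UMIs exceeded the median), and genes per UMI under 0.15, with the exception the methods make for cells with few genes. The numbers of cells left differ from those stated in the study, most at the last stages. From 17268 barcodes 16729 passed, and Scrublet (scanpy 1.11.5, 30 components, 0.008 per 1000 cells) removed 425 as doublets.

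Counts were summed per library and kind of cell, with at least 20 cells on each side, scaled by TMM, filtered by expression and analysed in edgeR 4.0.16 (R 4.3.3) by its quasi-likelihood F-test, p-values being adjusted by Benjamini-Hochberg over every tested gene. Comparisons of marked and other cells had the library as a block, as both sums come from the same library. The deviations of paired sums from group means correlated at 0.116 to 0.838. DESeq2 1.42.0 was the alternative, with no filter on low counts, each library left out, no block, thinning and stricter markers. Between the locations replicates are stages, so p-values measure the spread between stages. For HH stage they measure the spread around the slope. With the block they measure how the difference within a library varies between libraries. In all fits edgeR draws the variance of a gene towards that of the other genes. A small p thus need not reflect the spread of that gene over its own few libraries, as for CCND3 and UHRF1 in hemoglobin-rich cells. For shares, cells were thinned to 1000 UMIs (numpy 2.4.6, seed 1), with exact intervals from scipy 1.17.1. Kinds of cells were set before thinning. Tests were checked on simulated counts.

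The genes and lists were chosen with earlier results of these data known. Values are given for CDK1, TOP2A, CCNB2, CDC20, PCNA, MCM5 and RRM2, and for up to 3 called genes per direction that changed most among those at 50 CPM or more in 1 group; others are named as examples. Hemoglobin genes were 7 rows. No sequence was used here.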

Additional observations from a re-analysis of the deposited data

Results flagged for a closer look

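CCNA2 was the only gene of the list whose difference between marked and other cells itself differed between the locations by a test of that difference. In EPCAM cells it had 35.6, 42.2 and 58.2 CPM in the nasal libraries (HH15, HH18, HH22), against 114, 106 and 106 CPM in the other nasal cells, and 66.6, 40.2 and 53.6 CPM in the somite libraries (HH12, HH15, HH20), against 89.6, 77.5 and 81.1 CPM in the other somite cells. It was lower in EPCAM cells in all 6 libraries. The nasal minus somite difference of the log2 fold changes was -0.79 (adjusted p = 0.018 by edgeR's quasi-likelihood test of the interaction). That test was passed by 461 of 8932 genes and 1 of 41 listed genes. The share of listed genes was thus no higher than that of all genes, and CCNA2 is not read as particular to the list. Marker sums of EPCAM cells also differed between the locations, and their part in the difference was not tested. In the other 6 comparisons with both locations 0 listed genes passed the interaction test.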

How the results depend on the processing

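Over the alternatives run, 146 of 185 member counts, shares and levels kept their size and direction, as did 1293 of 1493 values of single genes in direction and call. Counts over all genes kept their size in 101 of 162 cases, so a changed count of listed genes need not be particular to them. Counts of called genes of the list that changed by over 1.5 times were as follows. With HH stage as a covariate 1 gene was called between the locations, and without a filter on low counts 1 between the locations in PDGFRA cells, 2 in ELAVL4 cells and 22 in ELAVL4 against FABP7 cells. Without the replicate block the counts were 6 (PDGFRA), 0 (NKX3-2), 0 (SOX10), 7 (EPCAM), 0 (ELAVL4 against FABP7) and 18 (CDK1 or TOP2A). Thinned to 1000 UMIs they were 14 (PDGFRA), 7 (NKX3-2), 6 (SOX10) and 13 (EPCAM). With at least 2 marker UMIs they were 6 (PDGFRA), 21 (ELAVL4), 6 (SOX10) and 10 (EPCAM). DESeq2 called 6 (NKX3-2) and 5 (SOX10). With 2 other neuron markers required, chosen after seeing the data, 19 were called in ELAVL4 cells against other cells and 27 against FABP7 cells. Leaving out 1 library gave 0 to 14 calls for HH stage, 6 to 16 for NKX3-2, 2 to 15 for SOX10 and 5 to 14 for ELAVL4 against FABP7 cells; DMRT2 has 2 libraries only, so none was left out.

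Over all genes DESeq2 called 492 against 213 by edgeR between the locations, 452 against 130 by HH stage, 304 against 980 in NKX3-2, 14 against 81 in DMRT2, 284 against 888 in SOX10, 252 against 451 in ELAVL4 against FABP7 and 1091 against 1778 in CDK1 or TOP2A cells.

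The share with CDK1 or TOP2A in hemoglobin-rich minus other cells was -23.6 points at 500 UMIs, -42.2 at 2000, -18.1 unthinned and -21.4 outside hemoglobin genes. FABP7 minus all cells was 4.44 points unthinned against 2.88 thinned, and ELAVL4 minus FABP7 cells was -23.9 points for neuron-like cells against -5.56.

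Signs turned for genes that were not called and for SMC4, whose called rise of 0.36 in PDGFRA cells was -0.0026 with at least 2 PDGFRA UMIs. Over the libraries left out in turn, the location difference in all cells ranged from -0.089 to 0.16 for CCNB2, -0.051 to 0.37 for MCM5, -0.10 to 0.27 for RRM2 and -0.24 to 0.070 for CDK1, which was 0.093 with the HH covariate. In PDGFRA cells it ranged from -0.026 to 0.18 for PCNA, -0.056 to 0.22 for MCM5, -0.051 to 0.29 for RRM2 and -0.39 to 0.017 for CCNB2, and the HH covariate gave -0.015 for TOP2A. The slope by HH stage ranged from -0.030 to 0.028 for CDC20, which was -0.0038 without a filter and -0.017 in PDGFRA cells, and from -0.050 to 0.014 for CCNB2. CDK1 in ELAVL4 cells ranged from -0.11 to 0.024 and MCM5 in hemoglobin-rich cells from -0.36 to 0.090. TOP2A was -0.0033 (no filter) and -0.010 (thinned) in NKX3-2 cells, -0.012 (no filter), -0.0038 (no block) and -0.15 (thinned) in DMRT2 cells, -0.022 in FABP7 cells without hemoglobin-rich cells, 0.046 (thinned) in SOX10 cells and 0.0043 (thinned) in ELAVL4 against FABP7 cells. CCNB2 in ELAVL4 cells was -0.023 (thinned), -0.62 (at least 2 UMIs) and -0.21 (neuron-like). The cause was not tested. CENPA and GINS2, at 188 and 150 UMIs in all, allow little to be said of them.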
